A study of Mus musculus with 16 samples.

Results

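The genes described here are the mouse potassium channel genes, taken as every gene in the count table whose symbol starts with Kcn. The table held 54838 genes and 99 such symbols. None of these was a pseudogene by its symbol, and 5 antisense transcripts were left out (*Kcnmb4os1*, *Kcnmb4os2*, *Kcnd3os*, *Kcnab3os* and *Kcnq1ot1*), which leaves 94 genes. They were compared between 8 size-selected and 8 whole spleen samples of C57BL/6 mice, with 4 male and 4 female numbers in each group. The labels name no transgene, treatment or age, and each number occurs in both groups. Size-selected samples hold the material that a strainer retained from digested spleen, and the labels give their source as spleen glia, the supporting cells of the nerves that enter the organ. How the whole spleen samples were prepared is not described separately in the labels.

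Potassium channels let potassium ions leave or enter a cell and so set its resting voltage and end its electrical signals. The Kcna genes encode voltage-gated pore subunits of the Shaker type, Kcnj genes inward rectifiers, Kcnk genes the background (leak) channels with a tandem pore domain, Kcnn genes channels opened by intracellular calcium, and Kcnq genes slowly acting voltage-gated subunits. The remaining symbols include other pore subunits (Kcnb, Kcnc, Kcnd, Kcnh, Kcnma, Kcns) and auxiliary subunits that change how a pore opens or where it sits (Kcnab, Kcne, Kcnip, Kcnmb). In immune cells potassium channels keep the membrane negative during calcium entry, in vascular smooth muscle they oppose contraction, and in peripheral nerve *Kcna1* and *Kcna2* are known from the axon beside the node of Ranvier.

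Totals ranged from 13119992 to 19944440 estimated counts in the size-selected samples and from 12153770 to 16282454 in whole spleen. Glia markers were present in the size-selected samples: of 13 listed genes 11 could be tested, each of them was higher, and the summed level was 102 to 693 CPM (counts scaled to a common library size) against 8.93 to 27.3 in whole spleen. Other cell types moved with them. All 8 smooth muscle markers rose, at a summed 863 to 3981 CPM against 11.6 to 78.5. All 8 endothelial markers rose (637 to 1591 against 82.2 to 191 CPM), as did all 7 fibroblast markers (1016 to 3610 against 4.67 to 57.7 CPM) and the 5 of 6 pericyte markers that passed the filter (128 to 578 against 0.849 to 11.4 CPM). Mesothelial (6 of 6), megakaryocyte (6 of 6) and macrophage (4 of 6) markers rose as well, while 6 of 7 T cell, 5 of 6 B cell, 5 of 6 neutrophil, 5 of 5 natural killer and 3 of 6 erythroid markers fell. Of the sympathetic neuron markers 3 of 8 passed the filter and rose, and *Th* was at 0 in every sample. Whole spleen sample 427 was the highest of its group for the glia, smooth muscle, pericyte, endothelial, fibroblast, mesothelial and macrophage lists. The part of each cell type in the Kcn results below was not tested, and in bulk RNA fewer cells of a type and less RNA per cell cannot be told apart.

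Most potassium channel genes that could be tested were more abundant in the size-selected samples. A gene was tested where enough samples reached about 10 counts, and 39 of the 94 passed. With edgeR, 25 of these 39 were higher in the size-selected samples at an adjusted p under 0.05, 4 were lower and 10 were not called. Over all 14510 genes tested, 37.5% were higher and 30.4% lower. Many of the 25 passed the filter only because of their level in the size-selected samples, so the count over the 39 is a description. The counts for single groups given below have the same limit and stand beside the same shares over all genes. Of the 17 members with at least 10 counts in each whole spleen sample, 5 were higher and 4 lower, with a median log2 fold change of -0.05. The same restriction over the whole table left 11731 genes, with 29.9% higher, 36.5% lower and a median of -0.09. In 21 members each size-selected sample lay above each whole spleen sample, a pattern seen in 23.3% of all genes tested. It held for 3 of the 17 members with at least 10 counts in each whole spleen sample, against 15.9% of the 11731 genes. The opposite order, with no overlap, held for *Kcnn4* alone among the members and for 11.6% of all genes. Paired by number, the fit with the replicate block again called 25 members higher and 4 lower. Without number 427 the counts were 25 higher and 3 lower.

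**Figure D1:**
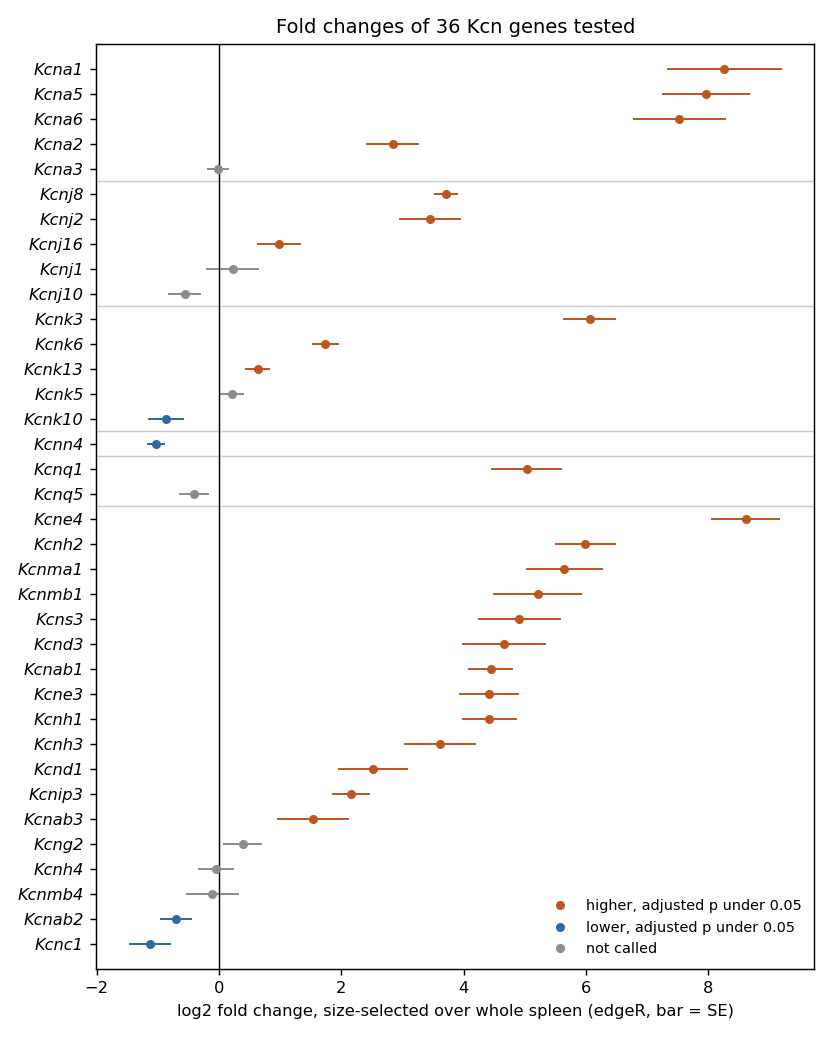
Log2 fold change of size-selected over whole spleen (x axis, edgeR, bars are SE) for 36 of the 39 Kcn genes tested, ordered within the groups Kcna, Kcnj, Kcnk, Kcnn, Kcnq and the remaining genes. The 24 genes in orange were higher, the 4 in blue were lower and the 8 in grey were not called, and *Kcne4* stands farthest to the right at 8.61.

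In the Kcna group 4 of the 5 genes tested rose and *Kcna3* was not called. *Kcna5* (ENSMUSG00000045534, chromosome 6, 126532551 to 126535412, GENCODE M21 on GRCm38) encodes a voltage-gated pore subunit known from smooth and cardiac muscle. Its level in the size-selected samples was 1.38 CPM at the lowest (sample 408), 5.44 at the median and 18.3 at the highest (sample 427). In whole spleen it had a single count in each of 2 samples and 0 in the other 6. The groups did not overlap. The edgeR log2 fold change was 7.96 (SE 0.72, adjusted p 1.85e-08, higher in 8 of 8 pairs), and since whole spleen held only 2 counts in all, this value depends on the small count that edgeR adds. The ratio of group levels was 356, with a 95% counting interval of 98.3 to 2946, and limma-voom gave a log2 value of 6.73.

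*Kcna1* (ENSMUSG00000047976, chromosome 6, 126640397 to 126646384), an axonal pore subunit, ran from 3.19 CPM (sample 447) over a median of 10.6 to 77.7 CPM (sample 436). Whole spleen had at most 3 counts in a sample. Its log2 fold change was 8.26 (SE 0.94, edgeR adjusted p 3.56e-07, 8 of 8 pairs), 7.25 without number 436, 8.96 without number 435 and 7.58 with limma-voom. *Kcna6* (ENSMUSG00000038077, chromosome 6, 126708329 to 126740674), a further Shaker-type pore, ran from 4.12 CPM (sample 447) over 8.93 to 41.2 CPM (sample 436), with at most 6 counts in whole spleen, with log2 fold change 7.52 (SE 0.76, edgeR adjusted p 7.37e-08), 6.81 without number 436 and 9.53 without number 408. Sample 436 was thus the highest of the 8 for both genes, and sample 447 the lowest. Without number 408 whole spleen held only 1 count of *Kcna6*, so 9.53 depends on the small count that edgeR adds. *Kcna6* shares 2355 exon bases with *Gm26673* on the opposite strand, and whether the counting used strand is not given in the sources used here, so its level is uncertain. In all, 15 of the 39 members tested share exon bases with another annotated gene, and the same limit holds for those named below.

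*Kcna2*, the partner of *Kcna1* in axonal channels, was already present in whole spleen at 1.79 ± 1.03 CPM and reached 12.9 ± 7.71 CPM (SD, n = 8 in both groups), with log2 fold change 2.84 (SE 0.43, edgeR adjusted p 1.08e-05). It was added to the named genes after its values were seen. *Kcna3*, the voltage-gated channel of T cells, stood at 12.4 ± 3.44 CPM after size selection and at 12.6 ± 2.43 CPM in whole spleen (SD, n = 8), and the log2 difference was -0.02 (SE 0.18, edgeR adjusted p 0.932). The ranges overlapped, at 6.3 to 17.4 and 8.41 to 15.7 CPM. *Kcna4* and *Kcna10* had 0 counts in all 16 samples, and *Kcna7* at most 1 count.

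*Kcna5*, *Kcna1* and *Kcna6* stand side by side on the minus strand of chromosome 6, with gaps of 104984 and 61944 bases, and all 3 rose. A second Kcna cluster on chromosome 3 was mixed: *Kcna3* at -0.02 and *Kcna2* at 2.84 lie 63075 bases apart, and *Kcna10* beyond them was at 0. Upstream of *Kcna5* the RefSeq window for GRCm38.p6 was read, shown because the Kcna5 level was near 0 in whole spleen. It lies between *Kcna5* and *Kcna1*, inside the cluster. It covers chr6:126535556-126535805 on the minus strand, ends at the base before the transcription start, and capitals mark an E box (CANNTG).

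Kcna5: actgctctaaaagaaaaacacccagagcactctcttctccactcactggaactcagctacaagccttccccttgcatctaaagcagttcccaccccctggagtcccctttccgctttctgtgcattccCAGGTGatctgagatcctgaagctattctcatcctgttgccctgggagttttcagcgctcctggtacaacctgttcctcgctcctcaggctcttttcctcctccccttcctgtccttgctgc

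Inward rectifiers were led by *Kcnj8* (ENSMUSG00000030247, chromosome 6, 142564837 to 142571614), the pore of the ATP-sensitive channel of vascular smooth muscle and pericytes. Its size-selected level was 63.8 CPM at the lowest (sample 435), 136 at the median and 196 at the highest (sample 427). In whole spleen it ranged from 7.98 over 10.5 to 12.6 CPM. Every size-selected sample was above every whole spleen sample, by a factor of 13.1 between the group means. The log2 fold change was 3.71 (SE 0.19, edgeR adjusted p 6.87e-11, 8 of 8 pairs), the smallest p among the members. In the authors' deposited table the log2 fold change of *Kcnj8* is 3.70, with mean TPM of 70.2 and 4.28.

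The partner of *Kcnj8* is the sulfonylurea receptor encoded by *Abcc9*, and the genes are neighbours, 16247 bases apart. *Abcc9* stood at 80 ± 27.6 CPM against 1.48 ± 0.802 CPM in whole spleen (SD, n = 8), with log2 fold change 5.76 (SE 0.35, edgeR adjusted p 2.03e-10). The related pair was near absent: *Kcnj11* had 1 count in all and *Abcc8* at most 7 counts in a sample. The RefSeq upstream windows of the pair follow, chr6:142571615-142571864 for *Kcnj8* and chr6:142702316-142702524 for *Abcc9*, both on the minus strand, with an E box (CANNTG) in capitals in the first and a GC box (GGGCGG, here on the opposite strand) in the other. The *Abcc9* window leaves out the 41 bases nearest the start, which lie in an annotated exon.

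Kcnj8: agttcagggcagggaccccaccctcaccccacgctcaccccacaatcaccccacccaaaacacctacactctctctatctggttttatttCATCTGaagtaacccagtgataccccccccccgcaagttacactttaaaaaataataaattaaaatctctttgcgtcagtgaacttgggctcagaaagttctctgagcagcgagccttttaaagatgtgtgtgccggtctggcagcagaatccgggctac
Abcc9: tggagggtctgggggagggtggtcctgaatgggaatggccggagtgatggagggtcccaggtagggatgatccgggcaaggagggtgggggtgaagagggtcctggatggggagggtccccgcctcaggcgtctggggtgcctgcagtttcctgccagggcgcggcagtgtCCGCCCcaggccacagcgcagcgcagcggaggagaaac

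These windows differ in base composition, with 49.2% G and C and 6 CG pairs for *Kcnj8* and 68.4% and 10 CG pairs for *Abcc9*. *Kcna5* had 53.2% and 3 CG pairs.

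*Kcnj2*, the classical strong inward rectifier, rose from 0.425 ± 0.348 to 4.65 ± 1.89 CPM (SD, n = 8), with log2 fold change 3.45 (SE 0.50, edgeR adjusted p 7.59e-06). Its size-selected values carry one of the constants described with the processing, and on restored counts the log2 fold change was 3.87. Its neighbour *Kcnj16*, 38195 bases away, rose from 4.63 ± 2.96 to 9.11 ± 4.96 CPM (log2 0.98, SE 0.36, edgeR adjusted p 0.0212). The ranges of *Kcnj16* overlapped, at 2.06 to 11 and 4.64 to 18.8 CPM, but it was higher in 8 of 8 pairs. With the replicate block its log2 change was 1.01 (SE 0.18, edgeR adjusted p 0.000243). In the fit without the block the call was lost when number 460 was left out (0.89, edgeR adjusted p 0.0607). *Kcnj10*, the rectifier known from glia of the brain, was not called: 2.59 ± 0.575 CPM against 3.82 ± 2.04 in whole spleen (log2 -0.56, SE 0.27, edgeR adjusted p 0.0759, lower in 6 of 8 pairs). *Kcnj1* was not called either, at 0.957 ± 0.342 and 0.817 ± 0.558 CPM (SD, n = 8).

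Among the leak channels 3 of 5 genes tested rose and 1 fell. *Kcnk3* (ENSMUSG00000049265, chromosome 5, 30588170 to 30625271), an acid-sensitive leak channel, ran from 14.9 CPM (sample 408) over a median of 24 to 47.4 CPM (sample 427). Whole spleen lay between 0 and 0.734 CPM, without overlap. The log2 fold change was 6.06 (SE 0.43, edgeR adjusted p 1.13e-09, 8 of 8 pairs). *Kcnk3* shares 229 exon bases with *Gm9899* on the opposite strand. *Kcnk6* rose from 3.32 ± 0.941 to 11.1 ± 3.69 CPM (SD, n = 8; log2 1.74, SE 0.22, edgeR adjusted p 1.67e-06), again without overlap. *Kcnk13*, known from microglia, changed less, from 4.39 ± 0.761 to 6.8 ± 2.29 CPM (log2 0.63, SE 0.21, edgeR adjusted p 0.0116, 7 of 8 pairs). *Kcnk5* was not called (12.9 ± 3.4 against 11.2 ± 3.4 CPM).

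*Kcnk10* (ENSMUSG00000033854, chromosome 12, 98429437 to 98578310), a leak channel opened by membrane stretch and lipids, went the other way. It ran from 0.859 CPM (sample 427) over 2.02 to 3.81 CPM (sample 408) in the size-selected samples and from 2.28 over 3.17 to 6.56 CPM in whole spleen. The ranges overlapped, but within each of the 8 numbers the size-selected sample was the lower. The log2 fold change was -0.87 (SE 0.29, edgeR adjusted p 0.0139).

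*Kcnn4* (ENSMUSG00000054342, chromosome 7, 24370263 to 24386690), the calcium-activated channel of lymphocytes, macrophages and red blood cells, was the only Kcnn gene past the filter and fell. Size-selected samples held 37.6 CPM at the lowest (sample 427), 60.2 at the median and 98.5 at the highest (sample 408), against 104, 126 and 145 CPM in whole spleen. Each size-selected sample was below each whole spleen sample. The log2 fold change was -1.03 (SE 0.15, edgeR adjusted p 5.51e-06, lower in 8 of 8 pairs). In the same samples T cell, B cell, natural killer, neutrophil and 3 of 6 erythroid markers fell, while 4 of 6 macrophage markers rose and 0 fell, and the part of these cells in this result was not tested. The RefSeq window upstream of *Kcnn4*, the member with the clearest fall, is chr7:24370013-24370262 on the plus strand. Its capitals mark an E box (CANNTG) and, nearer the start, a GC box (GGGCGG, on the opposite strand).

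Kcnn4: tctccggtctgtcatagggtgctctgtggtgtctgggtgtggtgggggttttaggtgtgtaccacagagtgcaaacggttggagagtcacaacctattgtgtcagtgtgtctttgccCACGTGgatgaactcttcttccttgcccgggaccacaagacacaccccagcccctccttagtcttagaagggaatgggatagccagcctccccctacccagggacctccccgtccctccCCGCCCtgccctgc

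The 3 small-conductance genes of this group fell short of the filter. *Kcnn2* had 3 to 27 counts per size-selected sample and 0 in each whole spleen sample. Taking 3 counts over the whole spleen group as the floor, it was at least 35-fold higher. *Kcnn3* had 5.75 to 39.8 counts against at most 7, and *Kcnn1* 3.31 to 29.1 against at most 2 (ratio 35, 95% counting interval 9.39 to 294). Sample 436 held 29.1 of the 81.2 size-selected counts of *Kcnn1* and both of its whole spleen counts, and without number 436 it was at least 15-fold higher over the same floor. Size-selected values of *Kcnn1* and *Kcnn3* carry one of the constants described with the processing. The interval and the limit for *Kcnn1* were computed on these values as deposited.

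Among the Kcnq genes *Kcnq1*, the pore that forms slow delayed-rectifier channels with Kcne subunits, rose from 0.207 ± 0.25 to 6.8 ± 3.01 CPM (SD, n = 8; log2 5.03, SE 0.58, edgeR adjusted p 3.76e-07), by 5.27 on restored counts and by 5.68 with limma-voom. *Kcnq1* shares 121 exon bases with the antisense *Kcnq1ot1*. *Kcnq5* was not called, at 3.62 ± 1.27 against 4.83 ± 1.66 CPM (log2 -0.41, edgeR adjusted p 0.14), but without number 435 it was called lower (-0.60, adjusted p 0.0392). *Kcnq3*, a neuronal subunit, reached at most 2 counts in a sample.

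**Figure D2:**
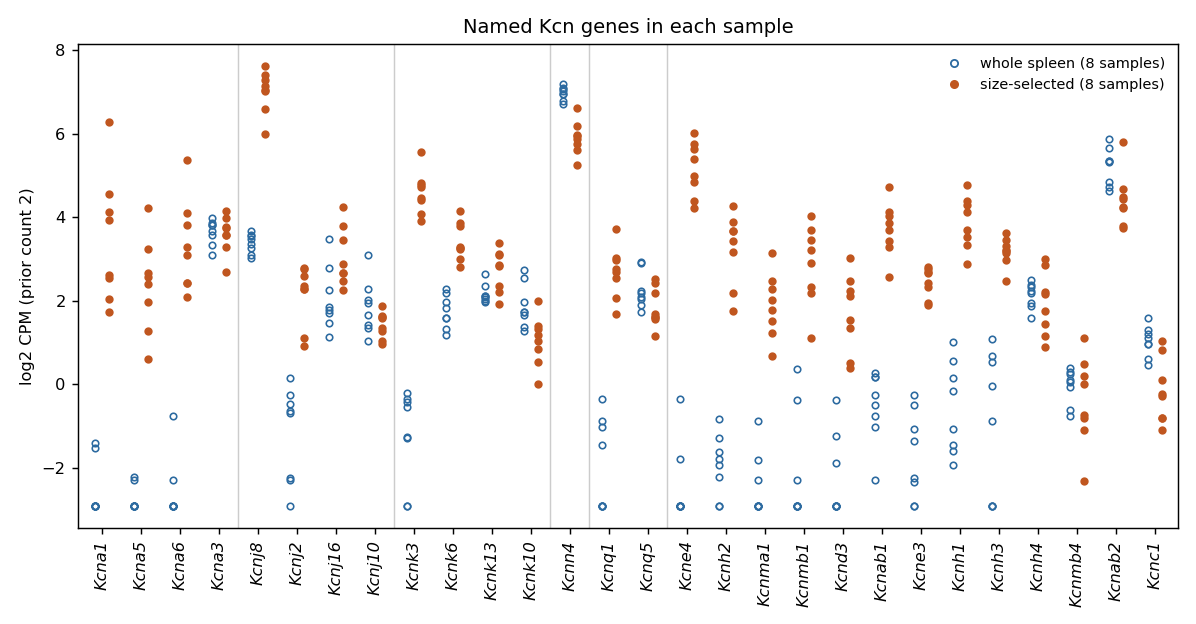
Log2 CPM (y axis, prior count 2) of 28 Kcn genes named by rule, with 8 whole spleen samples as open blue circles and 8 size-selected samples as filled orange circles for each gene. *Kcnj8* and *Kcne4* sit clear of whole spleen, *Kcnn4* sits below it, and *Kcna3* overlaps it.

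The remaining 48 Kcn genes had 20 past the filter, with 13 higher, 2 lower and 5 not called. Auxiliary subunits of the Kcne type bind voltage-gated pores such as *Kcnq1* and *Kcnh2*. *Kcne4* (ENSMUSG00000047330, chromosome 1, 78816758 to 78820028), an inhibitory subunit, ran from 18.5 CPM (sample 435) over 36.9 to 64.2 CPM (sample 427). In whole spleen 6 of 8 samples had 0 counts and sample 427 was the highest at 0.653 CPM. The log2 fold change was 8.61 (SE 0.56, edgeR adjusted p 4.21e-10, 8 of 8 pairs), and 10.27 without number 427. Without that number whole spleen held only the 2 counts of sample 407, so 10.27 depends on the small count that edgeR adds. *Kcne3* rose from 0.252 ± 0.268 to 5.42 ± 1.27 CPM (SD, n = 8; log2 4.42, SE 0.49, edgeR adjusted p 2.23e-07).

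Of the Kcnh family, the ether-a-go-go channels, 3 of 4 genes tested rose. *Kcnh2*, the pore of the cardiac rapid delayed rectifier, went from 0.158 ± 0.144 to 10.7 ± 5.22 CPM (log2 5.99, SE 0.50, edgeR adjusted p 6.43e-09). *Kcnh1* went from 0.73 ± 0.629 to 15.7 ± 6.58 CPM (log2 4.42, SE 0.45, edgeR adjusted p 7.58e-08). *Kcnh3* rose by 3.61 (SE 0.59) with edgeR and by 4.97 with limma-voom, and *Kcnh4* was not called, at 4.17 ± 2.27 against 4.32 ± 0.889 CPM (SD, n = 8).

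The large-conductance calcium-activated channel is built from *Kcnma1*, its pore, and beta subunits, of which *Kcnmb1* is the smooth muscle form. *Kcnma1* rose from 0.0787 ± 0.144 to 4.05 ± 2.27 CPM (log2 5.64, SE 0.63, edgeR adjusted p 2.7e-07). *Kcnmb1* rose from 0.231 ± 0.428 to 8.42 ± 4.69 CPM (SD, n = 8; log2 5.21, SE 0.73, edgeR adjusted p 4.59e-06), by 5.77 on restored counts and by 6.32 with limma-voom. Without number 427, whose whole spleen sample was the highest for both, the fitted changes were 6.47 for *Kcnma1* and 6.08 for *Kcnmb1*. *Kcnmb4*, the form known from neurons, was not called, at 0.804 ± 0.622 against 0.868 ± 0.259 CPM. *Kcnma1* and *Kcnmb4* share 1016 bases, and 355 and 693 bases, with transcripts on the opposite strand.

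The 3 Kcnab genes encode cytoplasmic beta subunits of Kcna pores and did not move together. *Kcnab1* rose from 0.65 ± 0.351 to 14.1 ± 6.09 CPM (log2 4.44, SE 0.37, edgeR adjusted p 7.32e-09), and by 5.00 on restored counts. *Kcnab2* fell from 38.6 ± 11.9 to 23.6 ± 13.4 CPM (SD, n = 8; log2 -0.71, SE 0.26, edgeR adjusted p 0.0235, lower in 7 of 8 pairs). In number 435 the pair went the other way, with 55.2 CPM in the size-selected and 50.4 in the whole spleen sample. With the replicate block the change of *Kcnab2* was -0.78 (SE 0.19, edgeR adjusted p 0.00292). In the fit without the block its call was lost when number 407, 427, 436 or 445 was left out, with edgeR adjusted p of 0.053 to 0.0919. It was also lost when scaled by library totals (-0.57, edgeR adjusted p 0.0774). *Kcnab3* rose by 1.54 (SE 0.59, edgeR adjusted p 0.0273), a call lost when number 407, 427, 445, 447 or 460 was left out, while without number 435 the rise was 2.22. On restored counts *Kcnab3* rose by 1.78.

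*Kcnc1* (ENSMUSG00000058975, chromosome 7, 46396497 to 46438704), a fast voltage-gated pore, ran from 0.329 CPM (sample 407) over 0.706 to 1.93 CPM (sample 447) in the size-selected samples, against 1.24, 1.92 and 2.86 CPM in whole spleen. It was lower in 7 of 8 pairs, with overlapping ranges (log2 -1.13, SE 0.34, edgeR adjusted p 0.00741). *Kcnd3*, a pore of transient A-type currents, rose by 4.66 (SE 0.69) to 3.73 ± 2.3 CPM, and by 5.47 without number 460. *Kcns3*, *Kcnip3* and *Kcnd1* were the other members that rose, by 4.91 (5.58 without number 427), 2.15 and 2.52, and *Kcng2* was not called (0.39, edgeR adjusted p 0.289). On restored counts *Kcnd1* rose by 2.76.

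Levels of different genes were compared after division by exon length in kilobases, taken over all annotated exons of a gene merged. In the size-selected samples *Kcnj8* had the highest level at 53 ± 16.2 CPM per kb (SD, n = 8), followed by *Kcne4* at 14.5 ± 6.2 and *Kcnn4* at 12.1 ± 3.56, which lie within each other's spread. *Kcna3* at 6.51 ± 1.81 and *Kcnk3* at 6.4 ± 2.53 came next and do not differ beyond their spread. The authors' deposited TPM means give another order for some genes. There *Kcnab1* is at 9.53 and *Kcnk3* at 8.8 in the size-selected group, while per kb *Kcnab1* was at 1.64 ± 0.709. The order thus depends on the measure. In whole spleen the order was *Kcnn4* at 24.6 ± 2.64, *Kcnab2* at 6.92 ± 2.14, *Kcna3* at 6.6 ± 1.28, *Kcnj8* at 4.05 ± 0.644 and *Kcnk5* at 3.28 ± 0.999 CPM per kb. Of these 5, *Kcnn4* lay above the rest, *Kcnab2* and *Kcna3* did not differ beyond their spread, nor did *Kcnj8* and *Kcnk5*.

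**Figure D3:**
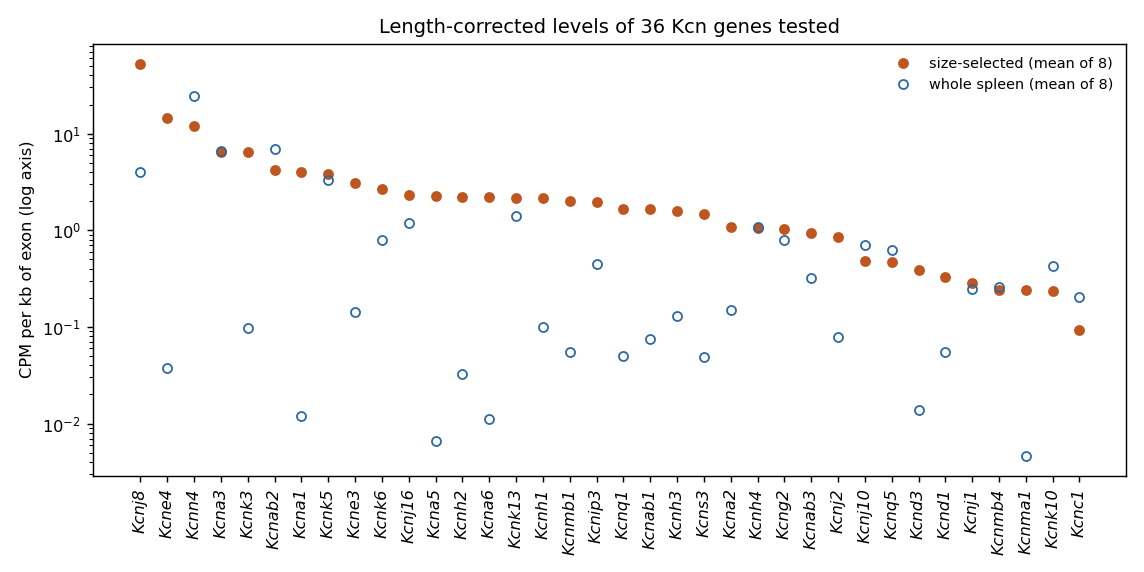
Mean level per kilobase of exon (CPM per kb, log axis) of 36 of the 39 Kcn genes tested, ordered by the size-selected mean, with size-selected means filled and whole spleen means open. *Kcnj8* leads the size-selected order at 53 and *Kcnn4* leads whole spleen at 24.6.

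Of the 55 members short of the filter, 10 had 0 counts in all 16 samples. A count of 0 allows a level of up to 0.15 to 0.247 CPM in a sample (3 counts of its total, counting error only). A further 22 stayed under 10 counts, and 23 reached 10 in at least 1 sample. In a fit without the filter 45 of the 55 could be tested, and 23 were called higher and 0 lower, where 25.3% of all genes were called higher in that fit. *Kcng4*, a silent subunit that modifies other voltage-gated pores, had 7 to 51 counts per size-selected sample and 0 in whole spleen, at least 57-fold higher. *Kcng3* had 5 to 70 counts against 1 to 7. *Kcnj12* (3 to 45 counts), *Kcnh8* (0 to 48) and *Kcnb2* (0 to 10) had 0 counts in whole spleen and were at least 29-fold, 23-fold and 11-fold higher over the same floor. Sample 436, also the highest for *Kcna1* and *Kcna6*, held 45 of the 103 counts of *Kcnj12* and 48 of the 80 of *Kcnh8*. Without number 436 these limits were 17-fold for *Kcnj12* and 9-fold for *Kcnh8*.

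*Kcnj15* (6.74 to 38.4 counts against at most 5), *Kcnt2* (0 to 24 against at most 1) and *Kcne1l* (2 to 19 against at most 3) were likewise called higher without the filter. So were *Kcnh7* (10 to 22 against at most 10), *Kcnh6* (4.11 to 24.8 against 1 to 7), *Kcnf1* (0 to 20 against at most 4) and *Kcng1* (0 to 15 against at most 2). Size-selected values of *Kcnj15* and *Kcnh6* carry a constant and are given as deposited. *Kcnc2* and *Kcnip1*, with at most 10 counts each and 0 in whole spleen, completed the calls among the 23 genes that reached 10 counts. Sample 447 held 10 of the 17 counts of *Kcnc2*, and sample 407 held 10 of the 19 of *Kcnip1*. Over the floor of 3 counts they were at least 4-fold and 5-fold higher. Without number 447 the limit for *Kcnc2* was 1-fold, and without number 407 that for *Kcnip1* was 2-fold. *Kcnk1*, *Kcnk7*, *Kcnk12*, *Kcnj5*, *Kcnip2* and *Kcnip4* reached 10 counts without a call. *Kcnk7* and *Kcnk12* had more counts in whole spleen (46 and 53 in all) than in the size-selected samples (44 and 30).

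The authors' deposited table lists 2201 genes higher in the size-selected group, 29 of them Kcn genes. It holds 17 of the 25 members called higher here and 12 that fell short of the filter. The 8 it does not hold are *Kcnab3*, *Kcnd1*, *Kcnh3*, *Kcnip3*, *Kcnj16*, *Kcnj2*, *Kcnk13* and *Kcnk6*. In that table the mean TPM of *Kcne4* is 20.5 against 0.05, of *Kcna1* 5.95 against 0.015 and of *Kcnk3* 8.8 against 0.154. *Kcnu1*, with at most 7 counts in a sample here, is in the authors' deposited table at a log2 fold change of 3.88.

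Genes that work beside potassium channels were taken from a list of 33, of which 18 passed the filter. Of these 13 rose, 2 fell and 3 were not called, where 37.5% of all genes tested were higher and 30.4% lower. Their median log2 fold change was 1.65 against 0.05 over all genes tested. Of the channel subunits outside the Kcn symbols *Abcc9* and *Amigo1* (2.01, SE 0.26) were the 2 of 9 that passed the filter, and both rose. Of 5 genes for clustering Kcna channels on axons, *Epb41l3* (1.71), *Adam22* (1.11) and *Dlg4* (1.81) rose, while *Cntnap2* and *Cntn2*, which hold Kcna1 and Kcna2 proteins beside the node, had at most 3 and 7 counts in a sample. Other potassium-permeable channels were represented by *Tmem38a* (2.69) and *Tmem38b* (1.58), which rose, and *Tmem175*, which was not called.

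In the potassium transport list 6 of 10 tested genes were higher and 2 lower, where 37.5% of all genes tested were higher and 30.4% lower. The sodium pump subunit *Atp1b2*, known from glia, rose by 3.96 (SE 0.34), from 3.05 ± 1.95 to 47.5 ± 21.4 CPM (SD, n = 8). *Atp1b1* and *Atp1b3* fell, by 0.80 and 0.37 on the log2 scale, each lower in 8 of 8 pairs. The potassium-chloride cotransporter genes *Slc12a4* and *Slc12a7* rose by 2.56 (SE 0.20) and 2.19 (SE 0.17), and the sodium-potassium-chloride cotransporter *Slc12a2* by 1.52 (SE 0.15). On restored counts *Slc12a4* and *Slc12a7* rose by 2.81 and 2.43, and *Atp1b3* changed by -0.30.

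Upstream windows were compared for the Kcn genes as a whole. RefSeq windows were found for 69 of the 94 members, 94 windows in all, and the search used the 250 bases upstream of each start site. Searched on both strands, a GC box (GGGCGG) was in 44.7% of the Kcn windows and 32.7% of all 32851 windows, a TATA box (TATAAA) in 3.19% and 12.4%, and an E box (CANNTG) in 67% and 66.2%. The SOX core motifs ACAATG and ACAAAG were in 7.45% and 10.6% of the Kcn windows and in 10.7% and 16.5% of all windows. The CArG box was in 0% and 1.47%. The 26 windows of members called higher held a GC box in 38.5% and an E box in 61.5%, and the 7 windows of members called lower in 57.1% each. These shares describe letters in the windows and were not tested, and the motifs do not overlap in the windows printed here.

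Within the size-selected samples the Kcn genes did not vary in one way. The log2 CPM of each of the 29 called members was correlated over the 8 samples with the mean log2 CPM of the glia, smooth muscle, endothelial and fibroblast lists, 116 pairs in all. With Pearson's r and an exact permutation test, 33 pairs had an unadjusted p under 0.05 and 10 an adjusted p under 0.05. Against the glia list r was 0.96 for *Kcna6* (Spearman's rho 0.98), 0.95 for *Kcna1* (rho 0.93) and 0.87 for *Kcna2* (rho 0.90). Exact permutation p were 0.000322, 0.000397 and 0.00186, and the adjusted p were 0.0115, 0.0115 and 0.036. For rho the exact permutation p were 0.000397, 0.00223 and 0.00456, with adjusted p of 0.023, 0.0518 and 0.0882. Without the 2 samples farthest from the median glia score, r was 0.86, 0.84 and 0.71. The glia score was highest in sample 436 (5.23) and 2.71 to 4.09 in the others.

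*Kcnmb1* followed the smooth muscle list (r 0.97, rho 0.98, exact permutation p 0.000174 and 0.000397, adjusted p 0.0115 and 0.023, r 0.94 without 2 samples), and *Kcnh2* did so at r 0.86 (rho 0.76, exact permutation p 0.00414 and 0.0368, adjusted p 0.048 and 0.224, r 0.55 without 2 samples). *Kcns3* followed the fibroblast list (r 0.92, rho 0.95, exact permutation p 0.000397 and 0.00114, adjusted p 0.0115 and 0.0331, r 0.90 without 2 samples). The endothelial list went with *Kcnq1* (r 0.96), *Kcnab3* (0.88) and *Kcne4* (0.87) and inversely with *Kcnn4* (-0.92), with exact permutation adjusted p of 0.036, 0.0448, 0.048 and 0.048. Their rho were 0.71, 0.86, 0.71 and -0.71, with adjusted p of 0.257, 0.113, 0.257 and 0.257. Their r without 2 samples were 0.89, 0.75, 0.61 and -0.82. By rank, *Kcnk6* went with the endothelial list (rho 0.95, exact permutation p 0.00114, adjusted p 0.0331), while its r of 0.85 missed the threshold (exact permutation p 0.00528, adjusted p 0.0557, r 0.78 without 2 samples). Of the 116 pairs, 4 had an adjusted p under 0.05 by rank: this one and those of *Kcnmb1* with smooth muscle, *Kcns3* with fibroblast and *Kcna6* with glia. Other lists gave values close to some of these: *Kcne4* had r of 0.86 with smooth muscle and 0.83 with fibroblast (exact permutation p 0.00801 and 0.0116, adjusted p 0.0664 and 0.0745), and *Kcnn4* had -0.82 with smooth muscle (exact permutation p 0.00915, adjusted p 0.0708). *Kcnmb1* had r of 0.82 with endothelial and 0.75 with fibroblast (0.50 and 0.97 without 2 samples), and *Kcns3* 0.85 with smooth muscle. *Kcnh2* had r of 0.73 with fibroblast (exact permutation adjusted p 0.153). Its rho there was 0.83 (exact permutation adjusted p 0.119), and its r without 2 samples was 0.83. Whether a gene's r differed between lists was not tested. The lists were themselves related over these samples, at r of 0.74 for glia with fibroblast, 0.75 for smooth muscle with endothelial, 0.76 for smooth muscle with fibroblast and 0.69 for endothelial with fibroblast, but 0.20 and 0.09 for glia with smooth muscle and with endothelial. These relations rest on few samples: without number 436, 0 of the 116 pairs had an adjusted p under 0.05, and without number 427 it was 1.

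**Figure D4:**
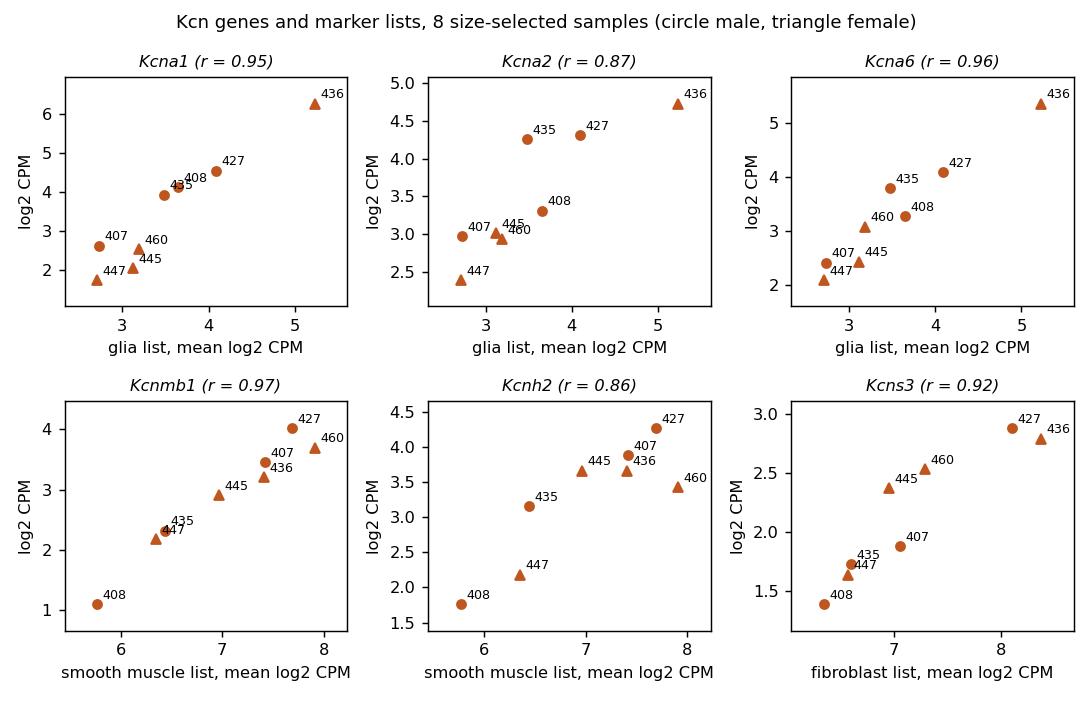
Log2 CPM of 6 Kcn genes (y axes) against the mean log2 CPM of a marker list (x axes) in the 8 size-selected samples, each labelled by its number, with circles for males and triangles for females. Sample 436 is at the top right for *Kcna1*, *Kcna2* and *Kcna6* against the glia list, and sample 408 at the bottom left for *Kcnmb1* and *Kcnh2* against the smooth muscle list.

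Sex was compared within each fraction, with 4 male and 4 female samples. In whole spleen 0 of 22 members tested were called by edgeR (2 had an unadjusted p under 0.05), against 0.194% of all genes called. In the size-selected samples 0 of 47 were called (2 had an unadjusted p under 0.05), against 0.0397%. The interaction of sex and fraction gave 0 of 47 (4 had an unadjusted p under 0.05), and 0% of all genes were called. As shares of the members tested, those with an unadjusted p under 0.05 were 9.09%, 4.26% and 8.51% in the 3 comparisons, against 16.1%, 4.18% and 4.72% of all genes tested. DESeq2 called 1, 0 and 1 members.

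*Kcnh3*, a voltage-gated pore known from the forebrain, had the smallest p in whole spleen and in the interaction. Whole spleen of males held 0.839 to 1.96 CPM, while 3 of 4 females had 0 and the fourth 0.412 CPM. The size-selected samples held 5.43 to 12.2 CPM in males and 8.71 to 10.8 CPM in females. The groups did not overlap in whole spleen and overlapped in the size-selected samples. The female minus male log2 difference in whole spleen was -3.68 (SE 0.90, edgeR adjusted p 0.0958), and the interaction was 3.78 (SE 0.84, edgeR adjusted p 1). DESeq2 called the interaction (3.92, adjusted p 0.00623). EdgeR called it without number 445 (adjusted p 0.0301), where the females in whole spleen were all at 0 counts, so that its size depends on the small count that edgeR adds and is not given. Without the count filter edgeR called *Kcnh3* in whole spleen (-3.66, adjusted p 0.0371).

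*Kcnab2* measured 47.3 ± 8.74 CPM in male and 29.9 ± 7.3 CPM in female whole spleen (SD, n = 4), a log2 difference of -0.67 (SE 0.18, edgeR adjusted p 0.126), and was called by DESeq2 (-0.67, adjusted p 0.0213) and without the filter (-0.66, adjusted p 0.0464). *Kcnj16* was the next in whole spleen (-0.84, SE 0.44, edgeR adjusted p 0.36). In the size-selected samples the members with the smallest p were *Kcnj2* (0.83, SE 0.36) and *Kcnh1* (0.70, SE 0.31), both with an edgeR adjusted p of 0.999, and *Kcna5* came next. In the interaction *Kcnh3* was followed by *Kcnmb1* (4.16, SE 1.67) and *Kcnd3* (-4.57, SE 1.86), whose whole spleen counts were at most 14 and 10.

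**Figure D5:**
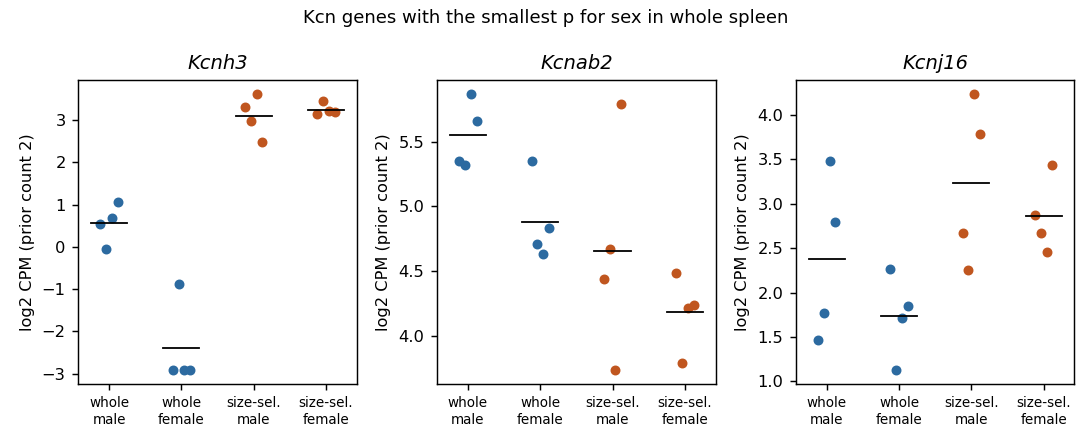
Log2 CPM (y axes, prior count 2) of *Kcnh3*, *Kcnab2* and *Kcnj16* in 4 male and 4 female samples of each fraction, with whole spleen in blue, size-selected in orange and group means as black lines. Males and females of whole spleen do not overlap for *Kcnh3*, while they overlap in the size-selected samples.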

How the data were processed

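RNA was sequenced from 8 size-selected and 8 whole spleen samples, grouped by title. Per the submitters' processing notes, Trim Galore, STAR, RSEM and DESeq were used with mm10; roles and the annotation are not given in the sources used here. The authors deposited estimated counts per gene and sample. In the size-selected columns the deposited values of 3898 genes, 12 of them Kcn genes (6 past the filter), were 2-decimal counts multiplied by constants, found from the values alone; restored counts divide these out. The authors' deposited comparison gives log2 fold changes, adjusted p-values and TPM means per group, per the file headers.

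Counts were rounded and tested with edgeR 4.0.16 in R 4.3.3 (filterByExpr minimum count 10, TMM, quasi-likelihood F test), with Benjamini-Hochberg adjustment over all genes and a threshold of 0.05, on all 16 samples for the fraction and the interaction and on 8 for sex. CPM uses TMM totals; log2 CPM adds a prior count of 2; each SE divides the log2 change by the root of F. Correlations used all 40320 pairings. The fits and the constants search were tested on simulated data. Same-numbered samples deviated together (r 0.12 to 0.38), so numbers pair samples. All 94 symbols were matched in GENCODE M21. Labels do not say that numbers are separate animals, so p-values measure the spread between these samples.

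Alternatives were RLE and library total scaling, DESeq2 1.42.0, limma-voom (limma 3.58.1), other count filters, the replicate block, sex as covariate, a fold minimum, restored counts and leaving out each number. In each of the Kcna, Kcnj, Kcnk, Kcnn and Kcnq groups the 3 smallest p in each direction were named, in the others 6, plus 3 per sex comparison, partner genes by 6 in each direction, and members short of the filter with 10 counts in a sample. The members and lists were chosen with earlier results of these data known. Kcn symbols of antisense transcripts that do not end in os were also left out. Some genes that the rule names are not reported here.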

Additional observations from a re-analysis of the deposited data

Results flagged for a closer look

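In 56 groups of 8 log2 CPM values of the named genes, 3 had a sample lying apart from the other 7. A chance rate of 1 in 20 cannot be set beside this count, since several whole spleen groups hold ties at 0 counts. For *Kcna6* and *Kcne4*, 6 of the 8 whole spleen samples were tied at 0 counts. In whole spleen, sample 408 lay apart for *Kcna6* at -0.76, with the others from -2.91 to -2.30. Whole spleen sample 427 lay apart for *Kcne4* at -0.35, with the others from -2.91, the value of 0 counts, to -1.79. Sample 427 was also the highest of its group for the glia, smooth muscle, pericyte, endothelial, fibroblast, mesothelial and macrophage lists. Its smooth muscle markers summed to 78.5 CPM against at most 50.6 in the others. In the size-selected samples, sample 435 lay apart for *Kcnab2* at 5.79, with the others from 3.74 to 4.67.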

How the results depend on the processing

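The count of 29 Kcn genes called between the fractions was 29 with the replicate block, which pairs samples by number, and changed no call. Without the count filter it was 52, with 48 higher, and with a minimum log2 change of 1 either way the lower calls were 2. Partner genes called without the filter numbered 23, with 21 higher, and with the fold minimum the lower calls were 0. For the interaction DESeq2 called 1 member, and leaving out each number gave 0 to 1. In whole spleen the sex comparison called 1 with DESeq2 and 2 without the filter. Using the median over each marker list, 22 member and list pairs had an adjusted p under 0.05, and leaving out each number gave 0 to 7. No called member among those named changed direction under any alternative run. The fold minimum left 25 members called and removed *Kcnab2*, *Kcnj16*, *Kcnk10* and *Kcnk13*. Under the other alternatives the calls lost were those of *Kcnab2*, *Kcnab3* and *Kcnj16*, given with those genes. Library totals shifted the median of all genes by 0.13 (log2) and RLE scaling by -0.01. No alternative changed the depth, and members at 0 counts are bounded only by the limit that a count of 0 allows. The cause of these changes was not tested beyond the genes tested or samples used.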
